A study of Homo sapiens with 5 samples.

Results

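The genes described here are 39 genes that act at the G1/S transition and in DNA replication, measured in 3 human renal cell carcinoma lines. They were chosen by name, not by their values, although earlier results of these data were known when they were chosen. Each was read through the probe set with the highest mean over the 5 Affymetrix arrays. The platform table assigns 80 probe sets to them. All 39 were measured, of 19775 genes with a probe set of their own, and all 39 were among the 15024 genes tested. The series holds 5 arrays of cell line RNA, with no treatment named in the labels. SN12C, the parental line, called non-metastatic in the labels, has 2 biological replicates. LM1, from lung-metastatic generation 1, has 1 array, and LM2, from lung-metastatic generation 2, has 2 biological replicates. How LM1 and LM2 were derived, how dense or how far into growth the cultures were at harvest, and whether "biological" means separate cultures are not given in the sources used here, so p-values measure only the spread between these arrays. The series description gives the purpose as finding expression that goes with rising metastatic activity.

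Before a cell enters S phase, the origin recognition complex, CDC6 and CDT1 load the ring-shaped MCM helicase onto origins of replication. Cyclin E with its kinase and the activity of E2F transcription factors then commit the cell to S phase, CDC45 and the GINS complex switch the helicase on, and primase, polymerases, the sliding clamp PCNA and its loader copy the DNA. Many of these genes are known E2F targets, and their messages are abundant in cycling cells and scarce in resting ones. In bulk RNA a smaller share of cells in S phase and less RNA per cell cannot be told apart.

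The RNA differed between arrays. Beta-actin probe sets for the 3' and the 5' end, whose gap widens in degraded RNA, lay 3.43 log2 units apart on LM1 but 0.07 to 0.47 apart elsewhere. The probe set for the middle of 18S ribosomal RNA was high on both SN12C replicate 1 (8.68) and LM1 (8.49) and read 7.43 to 7.56 elsewhere. SN12C replicate 1 also had the lowest 75th percentile, 8.05 where the others had 8.21 to 8.28. Of 12 renal carcinoma markers 10 were measured. PAX8, a renal factor, read 9.2 to 9.8. PAX2 stayed between 6.3 and 6.5 and LHX1 at 6.1, near the filter value of 6.03 used as the limit of low signal. VIM, KRT8, KRT18, CDH2 and MET read 10.2 or more on every array. CD24 read 7.68 and 11.10 in SN12C, 7.71 in LM1 and 6.67 and 7.31 in LM2, highest in SN12C replicate 2. EPCAM was below 6.03 on every array. Of 6 leukocyte markers 4 were measured: PTPRC, the pan-leukocyte marker, and LYZ were below 6.03 on every array, while CD3E and CD14 were above it on every array, at 6.19 to 7.16. Of 5 endothelial markers CDH5 read 4.9 on all 5 arrays, PECAM1, VWF and TEK were above 6.03 on every array, and KDR read 7.10 and 6.79 in SN12C, 5.77 in LM1 and 5.53 and 5.51 in LM2. The summed signal of the 4 leukocyte markers lay between 23.5 and 23.9 on the 5 arrays and that of 5 endothelial markers between 30.9 and 33.2. The fibroblast markers COL3A1 and THY1 did not stay low: COL3A1 read 7.0 and 9.0 in SN12C, 10.0 in LM1 and 10.9 and 11.1 in LM2. The summed signal of 6 fibroblast markers ran from 40.8 to 47.2, with LUM and FAP below 6.03 on every array. Of 5 lung epithelium markers SCGB1A1 was below 6.03 on every array. SFTPC, SFTPB, NKX2-1 and AGER were above it on every array, at 6.40 to 9.04. The part of these differences in the values below was not tested.

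The promoters of these genes share a feature that the choice of members did not use, although E2F control is one reason such genes are commonly listed together. RefSeq promoters (GRCh38.p14, from 250 bases before to 50 bases after the start site) were at hand for 35 of the 39 genes, as 44 start sites. The E2F consensus, searched on both strands as TTTCCCGC, TTTCGCGC, TTTGCCGC and TTTGGCGC, was found in 22 of the 44, covering 21 genes. Among 17130 promoters of genes tested it was found in 4.49%, and among all 35116 promoters in 3.31%. CCAAT occurred in 65.9% of the members' promoters and 34.2% of those of genes tested. TTTGAA, the CHR element known from genes of mitosis, occurred in 1 of the 44 promoters, against 10.9% of the promoters of genes tested and 66.7% of 21 promoters of mitosis and spindle genes. The 8 stretches below, all upstream of the start site, show the match, in capitals, in genes of 4 of the roles described in turn; reverse-strand matches begin with GCG.
MCM3 (chr6:52284889-52284936, minus strand): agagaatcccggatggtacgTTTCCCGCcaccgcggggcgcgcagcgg
MCM6 (chr2:135876502-135876615, minus strand): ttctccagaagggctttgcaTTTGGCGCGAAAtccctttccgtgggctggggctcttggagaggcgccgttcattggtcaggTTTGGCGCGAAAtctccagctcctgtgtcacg
GINS2 (chr16:85688958-85689005, minus strand): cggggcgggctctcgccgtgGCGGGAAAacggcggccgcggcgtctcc
PCNA (chr20:5126654-5126701, minus strand): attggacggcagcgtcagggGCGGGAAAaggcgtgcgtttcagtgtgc
POLA1 (chrX:24693761-24693808, plus strand): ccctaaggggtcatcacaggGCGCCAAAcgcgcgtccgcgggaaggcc
RFC3 (chr13:33818074-33818121, plus strand): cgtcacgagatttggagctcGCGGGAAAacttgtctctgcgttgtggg
CDC25A (chr3:48188434-48188481, minus strand): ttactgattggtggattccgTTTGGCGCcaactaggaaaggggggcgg
E2F1 (chr20:33686386-33686438, minus strand): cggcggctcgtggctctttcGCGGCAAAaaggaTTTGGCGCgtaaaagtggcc
In the MCM6 promoter 4 matches form a pair of overlapping forward and reverse matches at each of the capitalised runs. The 21 genes with a match and the 14 without one had similar values on the arrays: the median difference of LM2 from SN12C was 0.52 with a match and 0.55 without, and that of SN12C replicate 1 from replicate 2 was -0.92 and -0.97. A match is a description of the letters, not evidence of binding.

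LM2 was set against SN12C, its parent, first. The replication genes stood higher in LM2 as a group, but by an amount set largely by 1 of the SN12C arrays. The median difference over the 39 genes was 0.57 log2 units, against 0.03 over all genes tested, and 36 of the 39 were higher in LM2, against 55.5% of all genes. With each array centred on its median of tested genes 36 were higher again, against 42.6%. In limma no member reached an adjusted p under 0.05, LIG1 coming nearest at 0.374, nor did any of the 15024 genes, a background of 0.0%. At an unadjusted p under 0.05 there were 2, LIG1 and GINS4, both higher in LM2, where the background was 6.96% of genes higher at such a p. Both LM2 arrays lay above both SN12C arrays for 23 of the 39, against a background of 25.3%, and below both for 0, against 14.1%. The SD between the SN12C replicates had a median of 0.66 over the 39 genes, against 0.20 over all genes tested. That between the LM2 replicates had a median of 0.04, near the 0.05 over all genes.

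**Figure D1:**
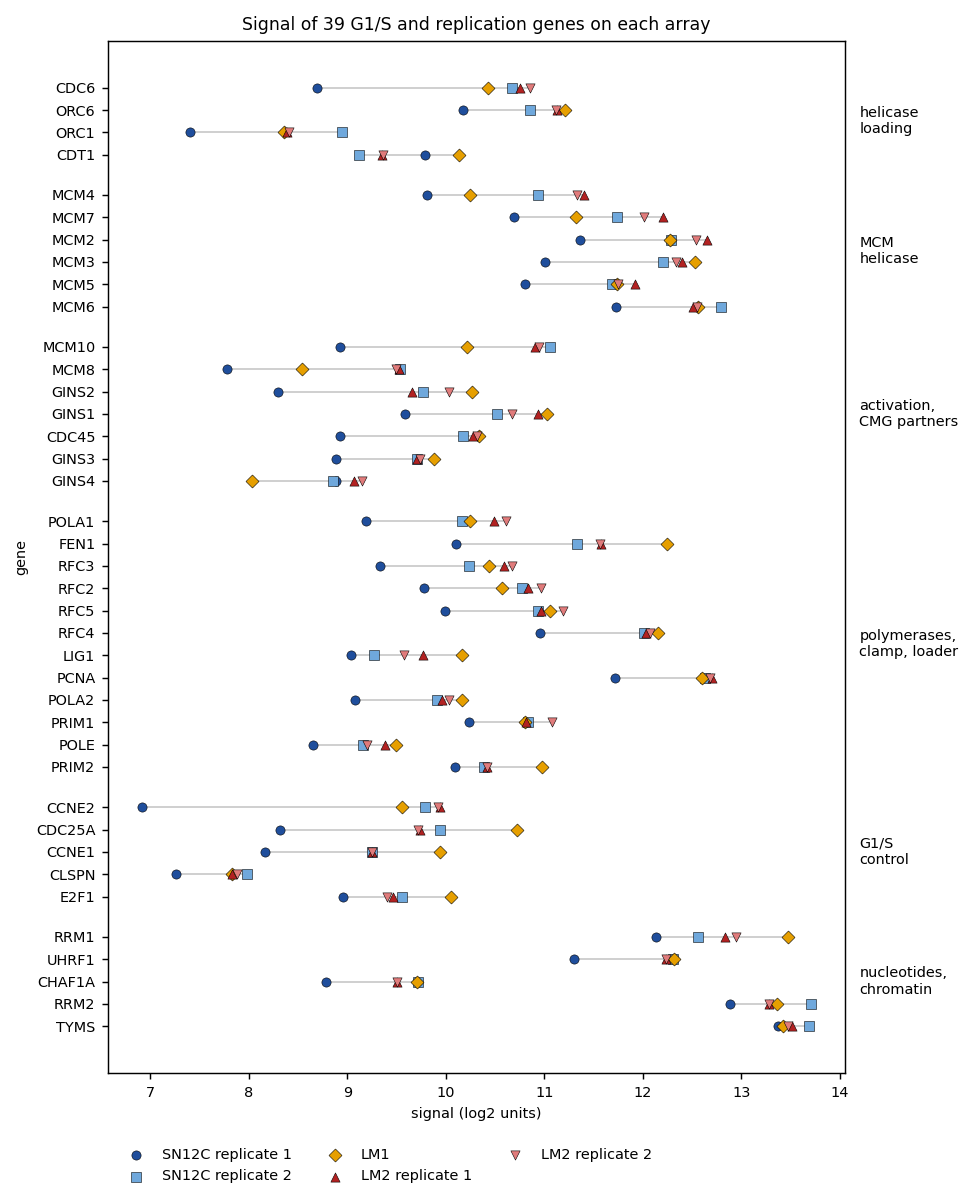
Signal of each of the 39 genes (rows, grouped by role) on each of the 5 arrays, in log2 units; each symbol is 1 array and the grey line spans the lowest to the highest. SN12C replicate 1 is the leftmost symbol for 37 of the 39 genes, while SN12C replicate 2 lies close to the LM2 arrays for most.

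SN12C replicate 1 gave the lowest signal of the 5 arrays for 37 of the 39 genes, where it was lowest for 41.0% of all genes tested. The exceptions were CDT1 and GINS4. It stood below replicate 2 by a median of -0.94 log2 units over the 39 genes, against -0.09 over all genes. With quantile normalization of the deposited values repeated, it was still lowest for 34 of the 39, against 29.3% of all genes, and the median difference from replicate 2 was -0.64. That setting was chosen after seeing the data.

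The factors that load the helicase were spread out. CDC6, the loading ATPase, read 8.70 and 10.68 in SN12C, 10.43 in LM1 and 10.75 and 10.86 in LM2. SN12C replicate 1 was the lone low array, and the difference of LM2 from SN12C was 1.12 ± 0.78 (SE; limma adjusted p = 0.631). The origin recognition subunits ORC6 and ORC1 had differences of 0.60 and 0.22. ORC6 was above both SN12C arrays on both LM2 arrays, whereas ORC1, at 8.39 and 8.41 in LM2, lay between the SN12C values of 7.40 and 8.95. CDT1, which brings the MCM ring to the origin, ran against the rest: its probe set read 9.78 and 9.12 in SN12C, 10.13 in LM1 and 9.35 and 9.36 in LM2. A second CDT1 probe set, ending in _s_at where the one used ends in _x_at, read 7.57 and 8.41 in SN12C, 8.73 in LM1 and 8.77 and 8.74 in LM2, with SN12C replicate 1 lowest. The probe sets of CDT1 therefore disagree on its direction.

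The MCM helicase was the role with the largest difference of LM2 from SN12C, a median of 0.77 over its 6 subunits, all 6 higher. MCM4 read 9.81 and 10.93 in SN12C, 10.24 in LM1 and 11.40 and 11.33 in LM2. MCM7 read 10.69 and 11.74 in SN12C, 11.32 in LM1 and 12.20 and 12.02 in LM2. MCM2 read 11.36 and 12.28 in SN12C, 12.28 in LM1 and 12.65 and 12.54 in LM2. By the probe sets used, the LM2 arrays were above all others for these subunits. The differences from SN12C were 1.00 ± 0.44, 0.90 ± 0.42 and 0.77 ± 0.37 (SE; limma adjusted p = 0.536, 0.556 and 0.559). On the second MCM7 probe set LM1 was highest, at 11.52 against 11.26 and 11.15 in LM2. On a further MCM4 probe set LM1 was also highest, at 10.96 against 10.44 and 10.62. Another MCM4 probe set kept LM2 above all, at 10.46 and 10.19. MCM3, at 11.00 and 12.21 in SN12C, 12.53 in LM1 and 12.39 and 12.34 in LM2, had its highest signal in LM1. MCM5 had a difference of 0.59, and MCM6 one of 0.26. MCM6 read 12.80 in SN12C replicate 2, above every other array, so the 6 subunits of the ring did not keep one order of the lines.

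The partners that complete and switch on the helicase had a median difference of 0.75. MCM10, which joins the activated helicase at the fork, read 8.92 and 11.06 in SN12C, 10.22 in LM1 and 10.91 and 10.95 in LM2. MCM8, a helicase of recombination repair rather than of origin loading, read 7.78 and 9.54 in SN12C, 8.54 in LM1 and 9.52 and 9.49 in LM2. For both, SN12C replicate 2 was the highest array and the difference of LM2 from SN12C, 0.93 ± 0.84 for MCM10 and 0.85 ± 0.69 for MCM8 (SE; limma adjusted p = 0.649 and 0.638), was not seen against that array. CDC45, a subunit of the active helicase, read 8.92 and 10.18 in SN12C, 10.34 in LM1 and 10.28 and 10.32 in LM2, so that every array but SN12C replicate 1 lay within a narrow band. GINS1 read 9.58 and 10.52 in SN12C, 11.03 in LM1 and 10.94 and 10.67 in LM2. GINS2 read 8.29 and 9.77 in SN12C, 10.27 in LM1 and 9.65 and 10.03 in LM2. Both of these GINS subunits were highest in LM1, as was GINS3, which differed between LM2 and SN12C by 0.43. GINS4 was the exception of the complex. It read 8.88 and 8.86 in SN12C and 9.07 and 9.15 in LM2, a difference of 0.24 ± 0.08 (SE; limma adjusted p = 0.42) with unadjusted p = 0.0462 in the same fit, and it was low in LM1 at 8.03. The other 2 GINS4 probe sets that passed the filter had differences of LM2 from SN12C of -0.01 and 0.06, and on both LM1 was the highest array.

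The enzymes of DNA synthesis had differences of one sign: all 12 were higher in LM2, and for 11 of the 12 both LM2 arrays lay above both SN12C arrays. POLA1, the catalytic subunit of the polymerase that starts new strands, read 9.19 and 10.16 in SN12C, 10.25 in LM1 and 10.49 and 10.61 in LM2. RFC3 of the clamp loader read 9.33 and 10.23 in SN12C, 10.44 in LM1 and 10.59 and 10.67 in LM2. In both genes LM2 was above all other arrays, by 0.87 ± 0.39 and 0.84 ± 0.36 over SN12C (SE; limma adjusted p = 0.536 and 0.518). RFC2 read 9.78 and 10.78 in SN12C, 10.57 in LM1 and 10.84 and 10.96 in LM2, and RFC5 read 9.99 and 10.93 in SN12C, 11.06 in LM1 and 10.96 and 11.19 in LM2. FEN1, the flap nuclease that trims Okazaki fragments, read 10.10 and 11.33 in SN12C, 12.25 in LM1 and 11.58 and 11.56 in LM2. FEN1 was thus highest in LM1, where a second FEN1 probe set, at 9.53 and 11.07 in SN12C and 11.39 and 11.32 in LM2, read only 10.45. LIG1, the ligase that seals those fragments, had SN12C replicates that lay close: it read 9.04 and 9.27 in SN12C, 10.16 in LM1 and 9.77 and 9.58 in LM2, a difference of 0.52 ± 0.14 (SE; limma adjusted p = 0.374). The remaining members of the role, RFC4, PCNA, POLA2, PRIM1, POLE and PRIM2, had differences between 0.17 and 0.57. PRIM1, a primase subunit, was the gene whose LM2 arrays did not both clear the SN12C arrays, at 10.81 and 11.07 against 10.23 and 10.83.

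The regulators of G1/S held the largest single difference, yet only 1 of the 5 had both LM2 arrays above both SN12C arrays. CCNE2, cyclin E2, read 6.91 and 9.78 in SN12C, 9.56 in LM1 and 9.94 and 9.92 in LM2. Its difference of LM2 from SN12C was the largest of the 39 at 1.58, but with an SE of 1.12 (limma adjusted p = 0.631), and against SN12C replicate 2 alone it was 0.15. CCNE1, cyclin E1, read 8.16 and 9.25 in SN12C, 9.94 in LM1 and 9.25 on both LM2 arrays. The deposited CCNE1 values of SN12C replicate 2 and the LM2 arrays were equal, and CCNE1 is one of 5 members with tied LM2 values. CDC25A, the phosphatase that activates the S phase kinase, and E2F1 both lay lower in LM2 than in SN12C replicate 2, at 9.74 and 9.71 against 9.94 and at 9.46 and 9.40 against 9.55. CLSPN, the checkpoint adaptor claspin, had a difference of 0.24 from SN12C.

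Genes of nucleotide supply and chromatin assembly had the smallest differences, a median of 0.25 over 5. RRM1, the large subunit of ribonucleotide reductase, read 12.14 and 12.56 in SN12C, 13.47 in LM1 and 12.84 and 12.94 in LM2. RRM2, the small subunit, read 12.88 and 13.71 in SN12C, 13.36 in LM1 and 13.28 on both LM2 arrays, between the SN12C values. The subunits of this enzyme therefore stood in different orders, RRM1 with a difference of 0.54 ± 0.18 and RRM2 with one of -0.02 ± 0.33 (SE; limma adjusted p = 0.438 and 0.992). TYMS, which makes thymidylate, differed by -0.04. CHAF1A, of the histone chaperone that follows the fork, differed by 0.25, and UHRF1, which keeps DNA methylation through replication, by 0.43, with both LM2 arrays of each below SN12C replicate 2.

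Set against each SN12C replicate in turn, LM2 gave different pictures. Against replicate 1 the median difference over the 39 genes was 1.04, with 38 of 39 higher and 20 higher by at least 1 log2 unit, where all genes had a median of 0.06, 56.2% higher and 5.71% higher by that much. Against replicate 2 it was 0.12, with 27 higher, 11 lower and CCNE1 equal, where all genes had a median of 0.00 and 50.5% higher. The differences share the LM2 arrays and carry no test of their own. Beyond replicate 2 the largest values were MCM4 at 0.44, LIG1 at 0.40, RFC3 at 0.39, POLA1 at 0.39 and MCM7 at 0.37, and all 12 enzymes of DNA synthesis stood at 0.02 or more. On the other side were ORC1 at -0.55, RRM2 at -0.43, MCM6 at -0.27, CHAF1A at -0.22 and CDC25A at -0.22. CCNE2, CDC6 and MCM10, which differed most from replicate 1, at 3.02, 2.11 and 2.00, stood at 0.15, 0.13 and -0.14 from replicate 2. Leaving out an SN12C array also changed the calls. Without replicate 2, 26 of the 39 genes passed in limma, against a background of 25.5%, and without replicate 1, 0 passed, against 0.0%. In both fits the spread comes from the LM2 pair alone, so these p-values say little about SN12C.

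**Figure D2:**
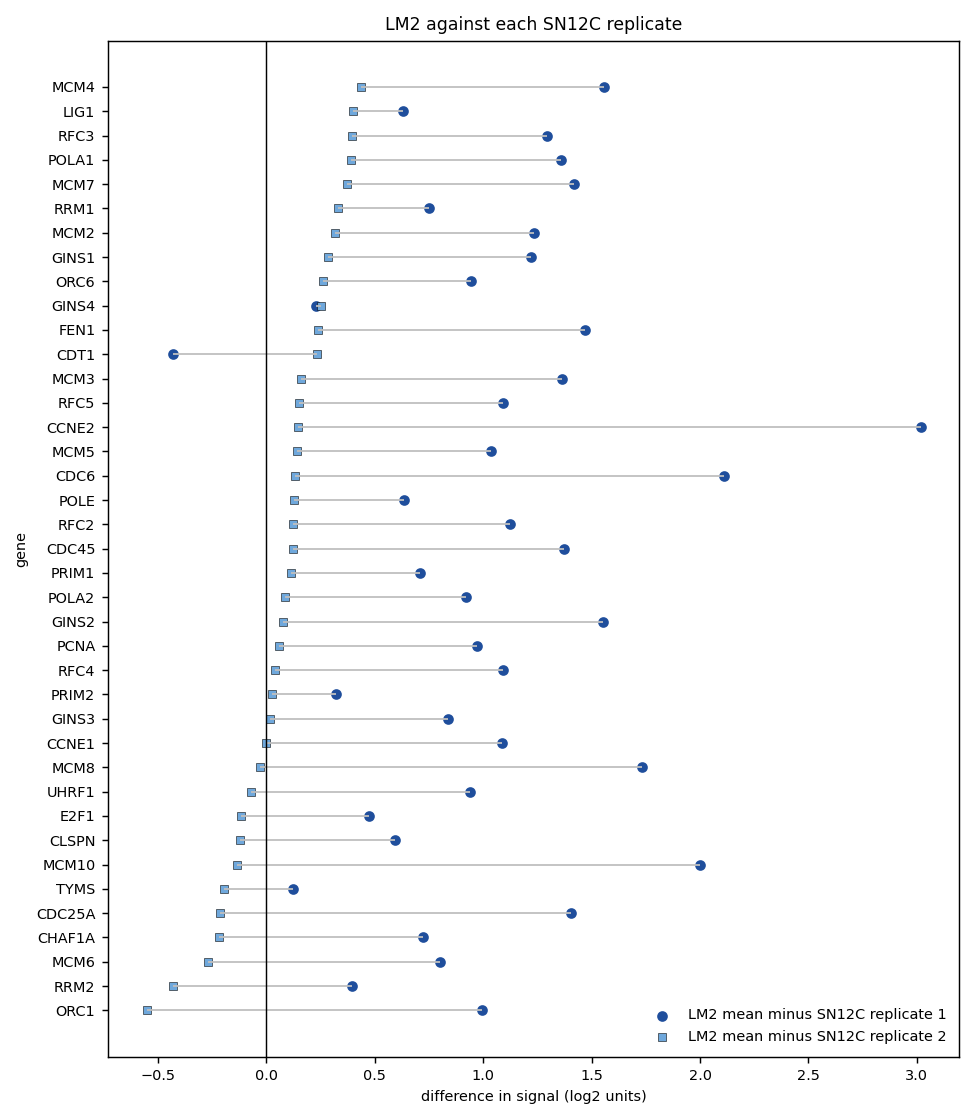
Difference in log2 signal of the mean of both LM2 arrays from SN12C replicate 1 (dark circles) and from SN12C replicate 2 (pale squares) for each of the 39 genes, sorted by the latter; the grey line joins the values of a gene. The circles reach 3.02 at CCNE2, while the squares stay between -0.55 and 0.44.

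LM1, the earlier generation, asks what already differed from the parent. The median difference of LM1 from SN12C over the 39 genes was 0.59, against 0.09 over all genes, and 35 were higher, against 60.2%; with the arrays centred, 30 were, against 36.5%. This comparison shares the SN12C arrays with the one above. None of the 39 passed in limma (lowest adjusted p = 0.0964, for GINS4), as for all genes, a background of 0.0%. At an unadjusted p under 0.05, RRM1, LIG1 and PRIM2 were higher and GINS4 lower, 4 of 39, against 22.1% of all genes. The largest differences were CDC25A at 1.59 ± 0.78 and FEN1 at 1.53 ± 0.59 (SE; limma adjusted p = 0.352 and 0.271), followed by GINS2 at 1.24, CCNE1 at 1.23, CCNE2 at 1.21, RRM1 at 1.12 and LIG1 at 1.01; these 7 were at least 1 log2 unit higher, against 6.27% of all genes. Several of them rest on the probe set used: the other 2 of CDC25A gave -0.90 and -0.66, and the others that passed the filter gave 0.15 for FEN1, -0.11 for GINS2, -0.77 for CCNE2 and -2.22 for RRM1. GINS4, at -0.84, had others at 0.61 and 0.18. LM1 lay above both SN12C arrays for 22 of the 39, against 45.2%. Against SN12C replicate 2 alone the median was 0.09, with 22 of 39 higher, where 58.7% of all genes were. LM1 gave the highest signal of the 5 arrays for 18 of the 39, against 37.6% of all genes, and with the arrays centred for 8, or 20.5%, against 21.4%. PRIM2, a primase subunit, shows the LM1 pattern with the tightest other arrays, at 10.09 and 10.39 in SN12C, 10.98 in LM1 and 10.41 on both LM2 arrays. Without SN12C replicate 1, CCNE2 stood at -0.23 in this comparison, and 10 of the 39 genes passed in limma, against a background of 13.2%; without replicate 2, 26 passed, against 32.1%.

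The LM1 array read different probe sets of one gene differently. For 24 of the 39 genes more than 1 probe set passed the filter, and the difference of LM1 from the mean of SN12C replicate 2 and both LM2 arrays was compared among them. It spanned a median of 0.79 log2 units within a gene, against 0.66 over 7195 genes with several such probe sets. MCM4 ran from -3.60 to 0.50 over 5 probe sets, RRM1 from -3.14 to 0.69, RFC3 from -3.28 to 0.22 and CCNE2 from -2.77 to -0.33. For RRM1 the probe set used read 13.47 in LM1, above every other array. The other read 10.78 and 12.16 in SN12C, 9.25 in LM1 and 12.50 on both LM2 arrays, so LM1 was the lowest. On 4 of 76 member probe sets that passed the filter, or 5.26%, LM1 was at least 1 log2 unit below all other arrays, against 3.98% of 27739 probe sets. These were probe sets of MCM4, RFC3, RRM1 and TYMS, and on all 4 SN12C replicate 1 was the next lowest, more than 1 log2 unit below replicate 2. LM1 is also the 1 array with the gap of 3.43 between 3' and 5' beta-actin. The positions of these probe sets within the messages were not at hand, and the part of that gap in these values was not tested. For CDC6, RFC2 and RRM2 the difference of LM1 from the mean of SN12C replicate 2 and both LM2 arrays hardly changed between probe sets. It spanned 0.09, 0.02 and 0.06.

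**Figure D3:**
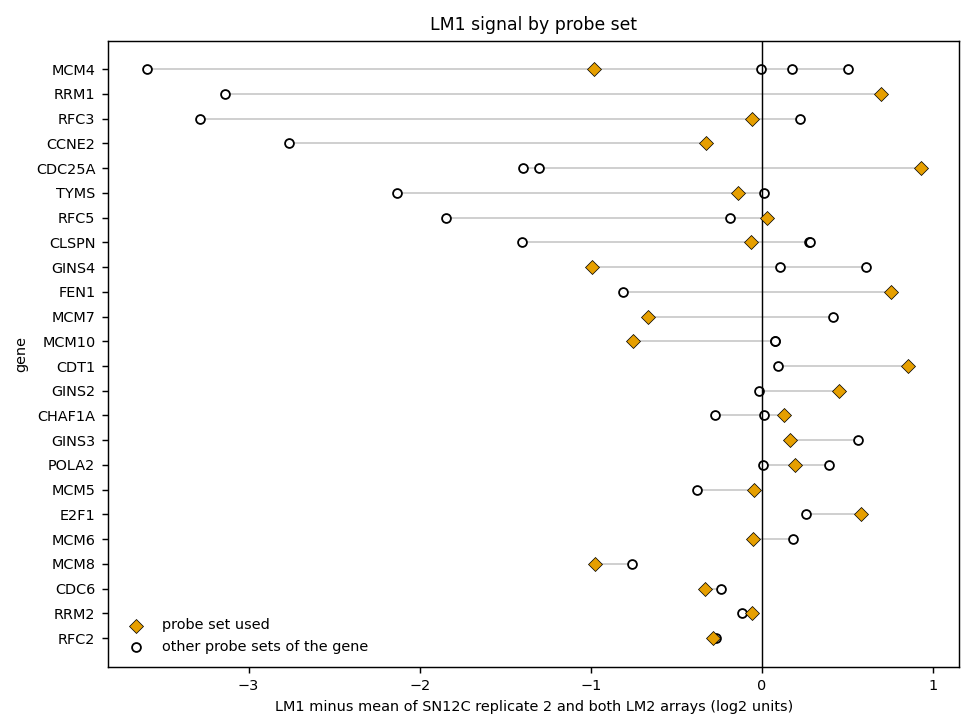
LM1 signal minus the mean of SN12C replicate 2 and both LM2 arrays, in log2 units, for every probe set passing the filter of the 24 genes with more than 1; diamonds are the probe sets used and open circles the others. Probe sets of MCM4, RRM1, RFC3, CCNE2, CDC25A and TYMS lie more than 2 log2 units apart, those of CDC6, RRM2 and RFC2 almost together.

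The same question was put to LM2. Of 37 further member probe sets that passed the filter, 29 were higher in LM2 than in SN12C, with a median difference of 0.40. Among the genes with a large difference, the second probe sets of CCNE2 and CDC6 gave 2.05 and 1.03, the others of MCM10 0.67 and 0.51, and those of MCM4 between -0.15 and 1.43. A GINS2 probe set that stood at 8.87 and 8.86 in LM2 and at 9.05 and 8.85 in SN12C gave -0.08, and 1 RFC5 probe set gave -0.50.

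LM2 against LM1 gave differences of both signs. The median over the 39 genes was -0.04, with 18 higher and 21 lower, where all genes had a median of -0.07 and 34.9% higher. With the arrays centred the member median turned to 0.14 with 27 of 39 higher, near the 0.12 and 62.7% of all genes. None of the 39 passed in limma (lowest adjusted p = 0.178, for GINS4), a background of 0.0%. At an unadjusted p under 0.05 GINS4 was higher and PRIM2 lower in LM2, 2 of 39, against 17.0% of all genes. MCM4 and GINS4 were at least 1 log2 unit higher in LM2, at 1.13 ± 0.54 and 1.08 ± 0.09, (SE; limma adjusted p = 0.433 and 0.178), against 1.68% of all genes. CDC25A alone was at least 1 log2 unit lower (limma adjusted p = 0.652), against 1.86%; it read 10.72 in LM1 and 9.74 and 9.71 in LM2. Other probe sets disagreed for all 3 genes. The other GINS4 probe sets that passed the filter gave -0.62 and -0.12, those of CDC25A 1.33 and 1.16, and those of MCM4 ran from -0.43 to 3.74. By the probe sets used, the G1/S regulators had the lowest median of the roles at -0.62 and the MCM ring the highest at 0.21. In that ring the second MCM7 probe set gave -0.31, where the one used gave 0.79. Among the G1/S regulators the second CCNE2 probe set gave 2.83, where the one used gave 0.37. The other CLSPN probe sets gave 1.32, -0.27 and -0.30, and that of E2F1 gave -0.26.

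Genes of the same pathway outside the 39 showed the low SN12C replicate 1 as well. Among all genes tested 55.5% were higher in LM2 than in SN12C, and 0.0% passed in limma. Of 33 further replication factors, 27 were higher in LM2 than in SN12C, with a median of 0.41, and 0 passed in limma in either direction. Against replicate 1 and replicate 2 their medians were 0.71 and 0.07. DONSON, a factor of fork assembly, and POLE2, a polymerase subunit, had differences of 1.21 and 1.16, and POLE2 kept 0.75 against replicate 2. Of 21 tested G1/S regulators 17 were higher, with a median of 0.30, and 0 passed. RBL1, the pocket protein p107, and E2F8 stood at 1.22 and 1.10. Among 15 genes of the replication checkpoint and fork repair, 14 were higher, with a median of 0.48, and 0 passed. ATR, the kinase of that checkpoint, stood at 0.76, and at 0.48 against replicate 2. Among 13 genes of S phase chromatin 11 were higher, with a median of 0.39, and 0 passed. CHAF1B, a partner of CHAF1A, differed by 0.90. Nucleotide synthesis was mixed, with 10 of 16 higher, or 62.5%, near the 55.5% of all genes. Its median was 0.14, and 0 passed. GART of purine synthesis stood at 1.25 and CTPS1 of CTP synthesis at -0.93. Of 10 CDK inhibitors and growth arrest genes 7 were lower in LM2, against 43.4% of all genes. Their median was -0.13, and 0 passed. BTG1 and GADD45A stood at -0.90 and -0.78, with both LM2 arrays below both SN12C arrays, and CDKN1A, the p21 inhibitor, at -0.45. The median of SN12C replicate 1 minus replicate 2 over that list was 0.03, against -0.09 over all genes. Replicate 1 was the highest array for 5 of the 10, against 23.3% of all genes, and it exceeded replicate 2 by 0.44 for BTG1 and 0.50 for GADD45A. Mitosis and spindle genes had a median of 0.32, 0.44 against replicate 1 and 0.17 against replicate 2, with 21 of 25 higher and 0 passing. UBE2C, which helps the cell leave mitosis, stood at -1.06 and PLK1, a mitotic kinase, at 0.81, so that list held differences of both signs. In replicate 1 they stood -0.31 from replicate 2, against -0.94 for the 39 genes; that difference between lists was not tested.

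**Figure D4:**
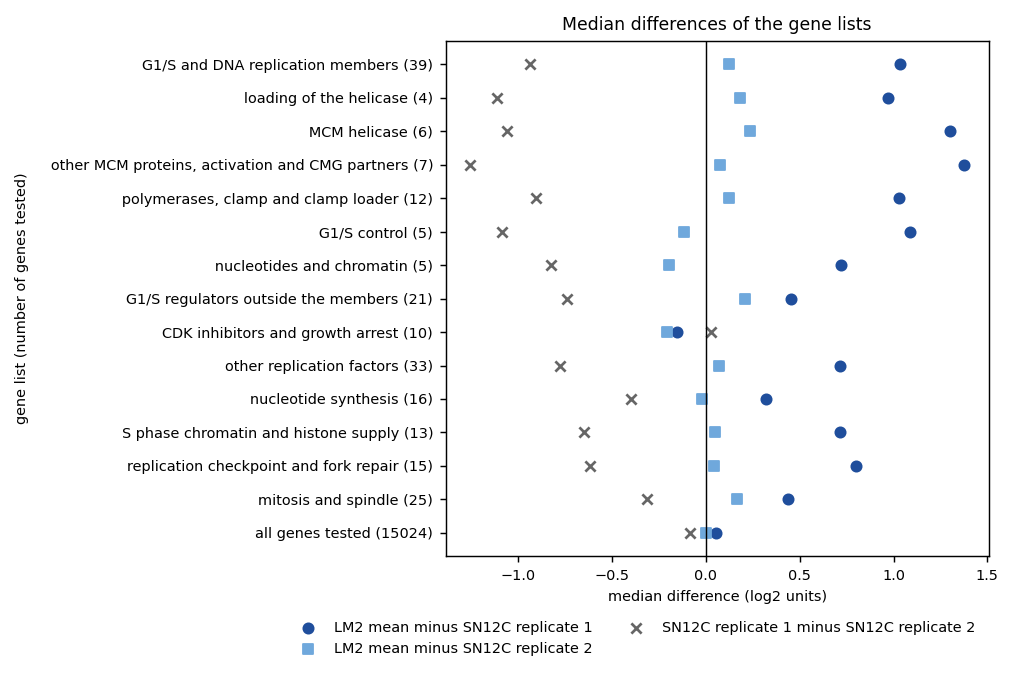
Median log2 difference of each gene list (rows, with the number of genes tested) for LM2 minus SN12C replicate 1 (circles), LM2 minus SN12C replicate 2 (squares) and SN12C replicate 1 minus replicate 2 (crosses); the first 7 rows are the 39 genes and their roles. All lists but that of CDK inhibitors and growth arrest have crosses left of the -0.09 of all genes and circles right of their 0.06, and squares between -0.21 and 0.24.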

How the data were processed

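Cell line RNA was hybridised to 5 Affymetrix arrays. The values used are those the authors deposited, on a log2 scale, and were not transformed again. RMA and Partek are named per the submitters' processing notes, without versions or settings. Among 54675 probe sets 41097 had 1 gene in the platform table; 62 controls and probe sets with several genes were left out. Each gene was represented by its probe set of highest mean, and was tested where at least 2 arrays were at or above 6.03, the 40th percentile of the deposited values. One mean per line was fitted over all 15024 genes with limma 3.58.1 (lmFit, eBayes; R 4.3.3), and p-values were adjusted over all of them by the Benjamini-Hochberg method; 2 residual degrees of freedom remain. With 2 arrays against 2, exact permutation gives a smallest two-sided p of 0.333. The number of arrays limits precision. The fit was tested on simulated data. Symbols, promoters and motifs came from RefSeq tables of GRCh38.p14; figures were drawn with matplotlib 3.10.9. Array values are given in full for the 16 members with the largest difference of LM2 from SN12C and for others that a comparison turns on, which were chosen after their values were seen; for each further list, genes were named among the 4 with the largest differences. The members and lists were chosen with earlier results of these data known. Alternatives changed the filter, the probe set rule, the scaling, the eBayes options and the treatment of ties, left out single arrays, or added the replicate number as a block.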

Additional observations from a re-analysis of the deposited data

How the results depend on the processing

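Centring each array on its median of tested genes gave 22 genes past an adjusted p of 0.05 for LM2 against SN12C, 154 for LM1 against SN12C and 1 for LM2 against LM1, where limma on the deposited values gave 0; leaving out genes with tied values gave 2 for LM2 against SN12C. With 1 array left out the counts ran from 0 to 3824, from 0 to 4823 and from 0 to 1273 genes, and from 0 to 26, from 0 to 26 and from 0 to 6 of the 39. The member median ran from 0.12 to 1.04 for LM2 and from 0.088 to 1.02 for LM1 against SN12C. Fits without an SN12C array take their spread from the LM2 pair alone, and a lone array is assumed to vary like the other groups.

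The mean over probe sets turned CDT1 to 0.33 and TYMS to 0.057 in LM2 against SN12C, GINS4 to 0.0073 and RRM1 to -0.55 in LM1 against SN12C, and CDC25A to 0.50 in LM2 against LM1. Without probe sets ending in _x_at and _s_at, GINS2 turned to -0.083 for LM2 and -0.11 for LM1 against SN12C. With 1 array left out, the difference of LM2 from SN12C changed sign for MCM6 (-0.27 to 0.80), MCM8 (-0.029 to 1.73), MCM10 (-0.14 to 2.00), CDT1 (-0.43 to 0.23), ORC1 (-0.55 to 0.99), E2F1 (-0.12 to 0.48), CHAF1A (-0.22 to 0.72), UHRF1 (-0.073 to 0.94), CDC25A (-0.22 to 1.40), CLSPN (-0.12 to 0.59), RRM2 (-0.43 to 0.39) and TYMS (-0.20 to 0.12), and that of LM1 for CCNE2 (-0.23 to 2.64). Each end of these ranges is the difference from 1 SN12C replicate alone, with the other left out. Why the SN12C replicates differ, and why probe sets of a gene differ, was not tested.

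The replicate numbers are not stated to pair the arrays. Over the 15024 genes, the differences of replicate 1 from replicate 2 in SN12C and in LM2 correlated at 0.092. With the replicate number as a block, limma called 0 genes for LM2 against SN12C, and the member median was 0.57.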
